A study of Mus musculus with 9 samples.

Results

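Padi1, Padi2, Padi3 and Padi4 encode the peptidylarginine deiminases other than Padi6, the member known from oocytes, and their transcripts were followed in cultured neonatal mouse ovaries. They are 4 of the 17889 genes tested, read by 5 probes of the 25697 on the array, of which 2 belong to Padi2. The genes were chosen by family, and the family was chosen because Padi1 was lower with both compounds than with the vehicle. The Padi1 values against the vehicle are therefore a description without a test. The log2 difference of Padi1 from the vehicle was -2.90 with BaP and -1.70 with DMBA. Padi2 fell by less on 1 of its 2 probes, and Padi3 and Padi4 stayed near the lowest signals of every array.

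Peptidylarginine deiminases are calcium-dependent enzymes that turn arginine residues of proteins into citrulline, which removes a positive charge and loosens how the protein folds and binds. Padi1 and Padi3 are best known from the epidermis and hair follicle, Padi2 from muscle, glia, secretory epithelium and leukocytes, and Padi4 from neutrophils, where it citrullinates histones. In rodents the uterine enzymes are known to respond to oestrogen, and Padi6 builds the cytoplasmic lattices of the egg.

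Ovaries of Swiss mice at postnatal day 3 to 4 were cultured for 96 hours (4 days) on inserts in serum-containing medium with added growth factors, so all groups share the serum and the factors. The groups were BaP (benzo[a]pyrene) at 1 uM, DMBA (7,12-dimethylbenz[a]anthracene) at 50 nM and the vehicle, acetone at 0.01%, with 3 arrays each and 9 in all. Both compounds are polycyclic aromatic hydrocarbons that bind the aryl hydrocarbon receptor, and the labels describe the DMBA concentration as picked in pilot work for open toxicity. Nothing in the labels tells whether the 3 arrays of a group hold RNA of different animals or cultures. The p-values thus cover only the spread between arrays, which may be technical. In whole ovaries, fewer cells of a type and less RNA per cell cannot be told apart.

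Median probe signals per array were 94.7 to 104.1 with BaP, 105.2 to 126 with DMBA and 105.8 to 133.7 with acetone, and the lowest signals were 70.1 to 84.4. The number of arrays limits the precision of every value. Markers of the labelled tissue varied in level. The oocyte genes Gdf9 and Zp3 lay at percentiles 99 and 98.8 of all genes by mean level, and the granulosa gene Inha at 97.2. Some other oocyte genes lay near the middle, with Ddx4, Zp2 and Nobox at 48.9, 55 and 57. The granulosa genes Foxl2 and Amh lay there too, at 54.9 and 55.4, and Fshr and Kitl lower, at 35.2 and 24.9. With limma at an adjusted p under 0.05, 1891 genes differed between BaP and acetone (842 higher, 1049 lower), 186 between DMBA and acetone (128 higher, 58 lower) and 261 between BaP and DMBA (121 higher, 140 lower). Scaling each array by its median in place of quantile normalization turned these splits to 253 higher and 4877 lower, 1 higher and 2 lower, and 53 higher and 2019 lower. Under that scaling, each DMBA call named here was lost, apart from that of Padi1, which was chosen for its fall and is no test.

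All 5 family genes lie side by side on mouse chromosome 4, in 225232 bases from 140727355 to 140952586 of GRCm38.p6. Along the chromosome the order is Padi6, Padi4, Padi3, Padi1 (140812981 to 140845778) and Padi2 (140906336 to 140952586). Padi2 is on the plus strand and the other 4 are on the minus strand. The 250 bases before the start site are shown for Padi1 and Padi2, the members with a lower signal in treated ovaries, because these neighbours have unlike promoters. The sequences are RefSeq's, for chr4:140845779-140846028 on the minus strand and chr4:140906110-140906359 on the plus strand, written 5′ to 3′. Positions count from the start site in RefSeq's promoter table, which for Padi2 is base 140906360, 24 bases inside the outermost base of the gene given above, and for Padi1 is that base itself. Capitals mark the core of the xenobiotic response element, the motif bound by the activated aryl hydrocarbon receptor, which reads GCGTG on the other strand here.
Padi1: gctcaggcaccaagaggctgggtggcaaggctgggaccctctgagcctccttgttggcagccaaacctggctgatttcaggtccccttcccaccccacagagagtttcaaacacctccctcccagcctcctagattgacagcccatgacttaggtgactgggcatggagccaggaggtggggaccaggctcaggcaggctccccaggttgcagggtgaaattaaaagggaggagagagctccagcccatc
Padi2: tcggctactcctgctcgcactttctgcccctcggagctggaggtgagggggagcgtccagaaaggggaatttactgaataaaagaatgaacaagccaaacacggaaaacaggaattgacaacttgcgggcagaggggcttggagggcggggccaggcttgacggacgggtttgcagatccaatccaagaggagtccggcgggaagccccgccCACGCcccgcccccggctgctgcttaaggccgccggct

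The window before Padi1 held 60% G and C but 0 CpG pairs, whereas that before Padi2 held 61.6% and 17 CpG pairs. Over all 32851 promoters of the table, the medians were 52.4% and 6 pairs. The xenobiotic core GCGTG, searched on both strands, was found once before Padi2, at positions -38 to -34 from the start site, and 28.2% of all promoters hold it. Padi2 also held 3 GC boxes (GGGCGG, both strands) at -107 to -102, -43 to -38 and -32 to -27, and the second shares base -38 with the xenobiotic core. A GC box is in 32.7% of all promoters. The Padi1 window held neither motif, which follows from its 0 CpG pairs, since both motifs contain CG. It also held neither the oestrogen response element (GGTCA, any 3 bases and TGACC, 0.0639% of all promoters) nor TATAAA (12.4% of all promoters). TATAAA was found at -31 to -26 before Padi4, whose start site in the table is 36 bases inside the gene, and a GC box at -47 to -42 before Padi3, while the oestrogen element was found before none of the 5 genes. These matches describe letters only.

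Padi1, a deiminase of epidermis and uterus, showed the widest range of the family. Its deposited signals were 95.9, 103.3 and 103.2 with BaP, 265.1, 223.8 and 222 with DMBA, and 649.1, 948.1 and 658.3 with acetone. The 3 groups did not overlap, and the BaP arrays put Padi1 at percentiles 49.2 to 53.4 of all probes, the middle of the array, against 68.9 to 72.9 with DMBA and 85.6 to 87.1 with acetone. After normalization the log2 levels were 6.35, 6.29 and 6.42 with BaP, 7.49, 7.39 and 7.76 with DMBA, and 9.22, 9.16 and 9.36 with acetone. The spread within a group was small next to these steps: 6.35 ± 0.06 with BaP, 7.55 ± 0.19 with DMBA and 9.25 ± 0.10 with acetone (SD, n = 3 each).

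The difference of Padi1 was -2.90 log2 units between BaP and acetone (SE 0.09), which is 7.45-fold lower, and -1.70 between DMBA and acetone (SE 0.10), which is 3.25-fold lower. By size of decrease Padi1 ranked 2 among all genes with BaP and 1 with DMBA, which is how it came to be chosen. Both comparisons use the same acetone arrays. The authors' deposited table gives ratios of acetone over compound of 5.33 for BaP and 2.89 for DMBA. Folds on a log2 scale with an offset understate a change that ends near the lower signals, as with BaP.

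Between the compounds, the log2 difference of Padi1 was -1.20 (95% interval -1.42 to -0.97), 2.29-fold lower with BaP than with DMBA. This passed the limma test over all genes (adjusted p = 0.000121), and each BaP array lay below each DMBA array. The rule did not use this contrast, but it is the difference of the 2 contrasts that chose Padi1, on the same arrays. The p is therefore not free of that choice, and the doses differ. Padi1 was the member called of 4, against a background of 1.46% of all genes called in this comparison.

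**Figure D1:**
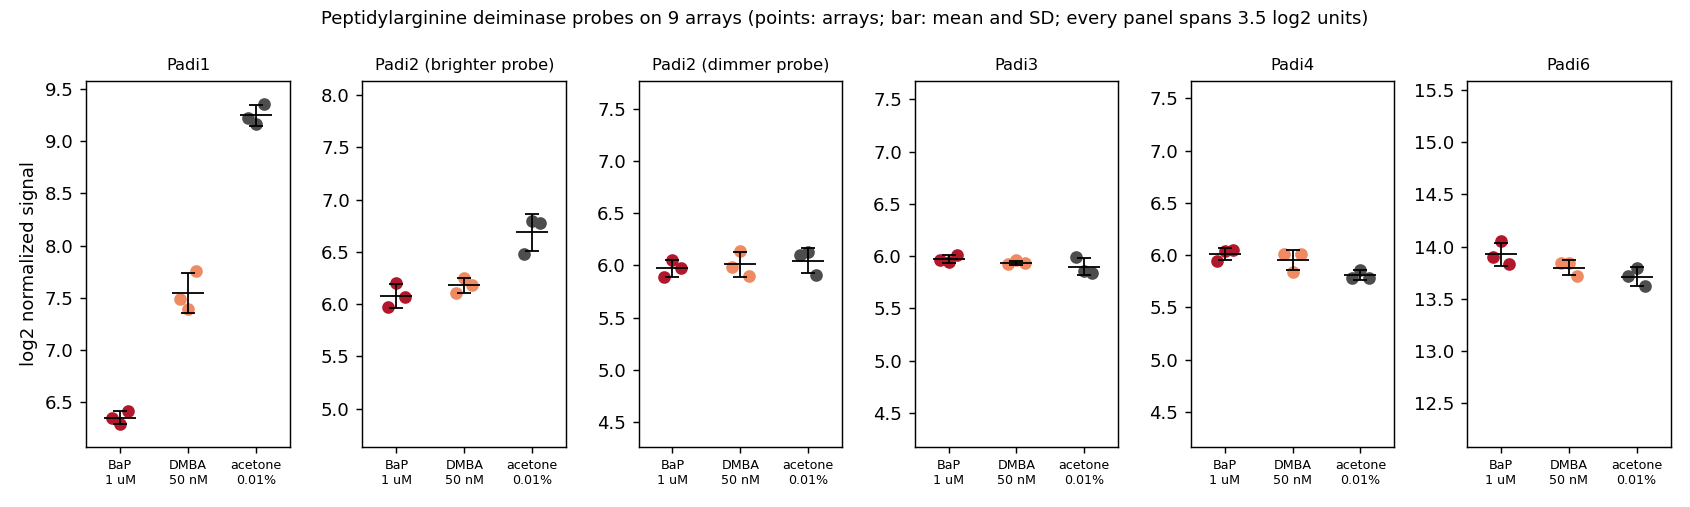
Log2 normalized signal of each deiminase probe on every array, with BaP, DMBA and acetone from left to right; points are arrays, bars are the mean and SD (n = 3), and all panels span the same number of log2 units. Padi1 separates into 3 levels, 6.35, 7.55 and 9.25, while the Padi3, Padi4 and dimmer Padi2 probes stay close to 6.

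Padi2, the widely expressed deiminase of muscle, glia and secretory epithelium, was dimmer. Its brighter probe gave deposited signals of 84.4, 99.7 and 91.6 with BaP, 111, 113 and 99.2 with DMBA, and 115.2, 186 and 136.8 with acetone. The log2 levels were 5.97, 6.20 and 6.07 with BaP, 6.11, 6.25 and 6.18 with DMBA, and 6.48, 6.80 and 6.78 with acetone. Every treated array lay below every acetone array, while the BaP and DMBA arrays overlapped. Even with acetone the probe reached only percentiles 54.8 to 61 of the array, with 38.3 to 47.5 with DMBA and 21.8 to 45 with BaP.

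Padi2 fell with BaP by 0.60 log2 units (6.08 ± 0.12 with BaP, 6.68 ± 0.18 with acetone, SD, n = 3 each), 1.52-fold, and passed limma's test (adjusted p = 6.38e-05). Under the other settings it stayed called, with differences from -1.03 to -0.40. It also fell with DMBA, by 0.50 log2 units (6.18 ± 0.07 with DMBA, SD, n = 3), with a limma adjusted p of 0.0416, close to the threshold. That call was lost with median scaling (adjusted p = 0.354), with the deposited normalized values (0.112) and without background correction (0.0918). It was also lost without acetone replicate 2 (0.268), acetone replicate 3 (0.226), DMBA replicate 1 (0.0708) or DMBA replicate 2 (0.129). Between BaP and DMBA, Padi2 differed by -0.10 log2 units (95% interval -0.30 to 0.10, adjusted p = 0.749).

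The dimmer Padi2 probe gave smaller differences. Its log2 levels were 5.89, 6.05 and 5.98 with BaP, 5.99, 6.14 and 5.90 with DMBA, and 6.10, 6.13 and 5.91 with acetone, and all 3 groups overlapped. The differences were -0.07 with BaP and -0.04 with DMBA against acetone (adjusted p = 0.738 and 0.949 over all probes). The authors' deposited table gives ratios of acetone over compound of 1.32 and 1.26 for the brighter probe and 1.03 and 1.02 for the dimmer one, BaP before DMBA. Both probes are listed under the same RefSeq transcript, and their positions in it were not analysed here.

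Padi3, the hair follicle deiminase, and Padi4, the neutrophil and histone deiminase, were hardly above the lowest signals. Padi3 had log2 levels of 5.96, 5.94 and 6.01 with BaP, 5.92, 5.96 and 5.93 with DMBA, and 5.99, 5.86 and 5.84 with acetone. The groups overlapped, with differences of 0.08 for BaP (95% interval -0.10 to 0.25, adjusted p = 0.692) and 0.04 for DMBA (-0.13 to 0.21, adjusted p = 0.929). Its signal lay between percentiles 6.36 and 27.6 of each array, where a fall could hardly be seen.

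Padi4 had log2 levels of 5.94, 6.04 and 6.05 with BaP, 6.01, 5.84 and 6.01 with DMBA, and 5.78, 5.86 and 5.78 with acetone. The BaP arrays lay above the acetone arrays without overlap, but the difference of 0.20 (95% interval 0.03 to 0.37) did not pass limma's test (adjusted p = 0.131). With median scaling it was 0.33 and passed (adjusted p = 0.0211). The DMBA difference was 0.14 (-0.03 to 0.32, adjusted p = 0.624), with overlapping arrays. These levels correspond to percentiles 18.1 to 32.6 with BaP, 6.42 to 27.4 with DMBA and 2.65 to 8.6 with acetone, below most probes of each array.

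**Figure D2:**
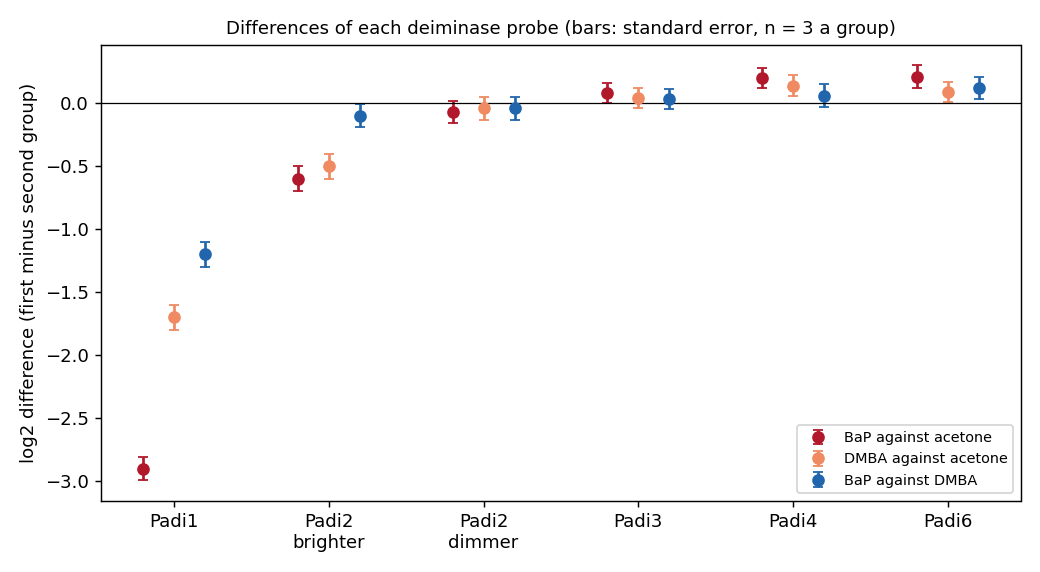
Log2 difference of each deiminase probe in BaP against acetone, DMBA against acetone and BaP against DMBA, with the first minus the second group and bars for the standard error (n = 3 a group). Padi1 lies at -2.90, -1.70 and -1.20, the brighter Padi2 probe at -0.60, -0.50 and -0.10, and the other probes close to 0.

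Counted over the 4 genes, 2 were called lower and 0 higher with BaP, against backgrounds of 5.86% of all genes lower and 4.71% higher, and 3 did not overlap between groups, against 24.6%. With DMBA 2 were called lower and 0 higher, against backgrounds of 0.324% lower and 0.716% higher, and 2 did not overlap, against 15.7%. Padi1 is in each of these counts by choice, and both comparisons use the same acetone arrays. Beyond it, Padi2 adds to each count, and Padi4, which lay higher, adds to the BaP count of genes without overlap. Between BaP and DMBA 1 gene, Padi1, was called lower and 0 higher, against 0.783% lower and 0.676% higher, and 1 did not overlap, against 16.9%.

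Padi6, the oocyte member at the end of the same block, was among the brightest probes, at percentiles 99.8 to 99.9. Its log2 levels were 13.90, 14.05 and 13.83 with BaP, 13.84, 13.84 and 13.72 with DMBA, and 13.72, 13.80 and 13.62 with acetone. The differences were 0.21 for BaP (adjusted p = 0.135) and 0.09 for DMBA (adjusted p = 0.813), and with median scaling they turned to -0.099 and -0.045. Padi6 thus passed the test with neither compound, and the sign of its difference depended on the scaling.

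Around the block, 12 named genes were considered, the 6 nearest on each side, and 10 were measured. With BaP 1 of the 10 was called higher and 0 lower, and with DMBA 0 were called either way. These shares are near the backgrounds of 10.6% and 1.04% of all genes called in those comparisons. The called neighbour was Mfap2, a microfibril protein, at 11.68 ± 0.12 with BaP and 11.38 ± 0.11 with acetone (SD, n = 3 each). It was 0.30 log2 units higher with BaP (adjusted p = 0.0261) and turned to -0.10 with median scaling. Sdhb, the succinate dehydrogenase subunit next to Padi2, differed by -0.07 with BaP and 0.09 with DMBA, and Rcc2, the nearest measured gene beyond Padi6, by 0.04 and 0.07.

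**Figure D3:**
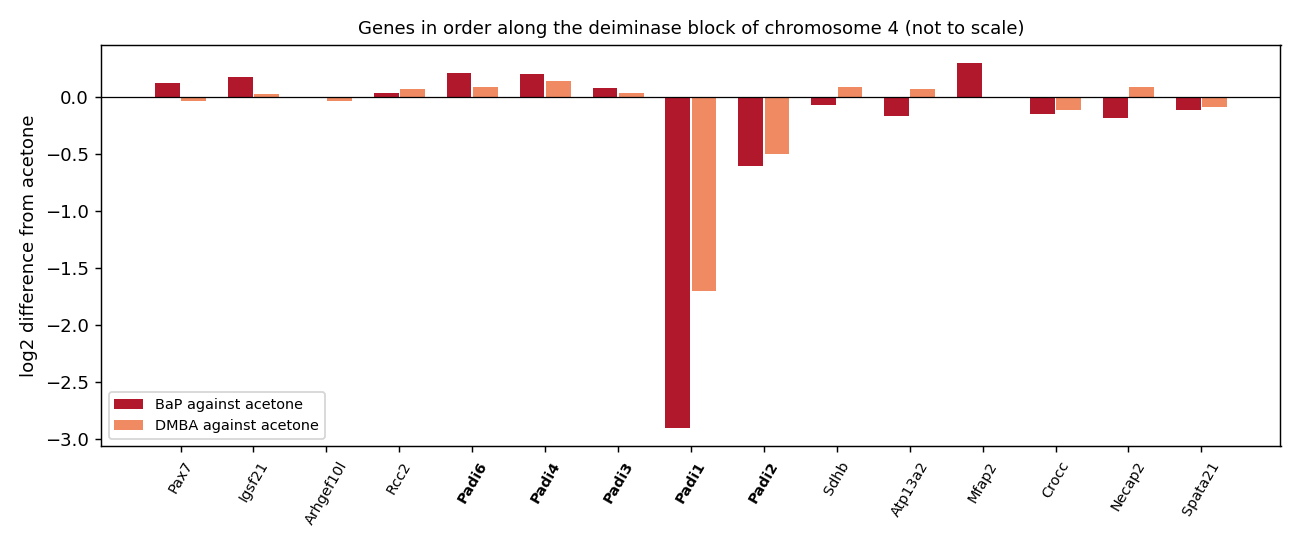
Log2 difference from acetone with BaP and with DMBA for the 5 deiminase genes and the 10 measured neighbours, in their order along the chromosome and not to scale. The bars of Padi1 (-2.90 and -1.70) and Padi2 (-0.60 and -0.50) stand out from neighbours that lie between -0.18 and 0.30.

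The genes most like Padi1 were sought by Pearson's r over the 9 arrays, among 108 named genes with a log2 SD of at least 0.4, as a description without a p. These correlations share their arrays and mostly follow the 3 group levels. The highest were Pnpla1, a lipid enzyme of the epidermis (r = 0.975), Cstdc4 (0.947), Gabrp, a GABA receptor subunit (0.941), Tmem255a (0.939), Pramel25 (0.928) and Bmp15, an oocyte growth factor (0.926). Their smaller steps were -1.01 and -0.46 for Pnpla1, -1.39 and -0.48 for Cstdc4, and -0.86 and -0.55 for Bmp15, with BaP and then DMBA against acetone. These genes were picked for following Padi1 on the same arrays, so a call of theirs against acetone adds no independent test. Tmem255a and Pramel25 did not pass with DMBA (limma adjusted p = 0.0721 and 0.0535). The DMBA calls of Pnpla1, Cstdc4 and Bmp15 were lost with the deposited log2 values. With the group means taken out, r was 0.57 for Pnpla1 and 0.80 for Gabrp. It was below 0 for the rest, at -0.25 for Cstdc4, -0.61 for Tmem255a, -0.46 for Pramel25 and -0.49 for Bmp15.

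The genes least like Padi1 were Brat1 (r = -0.980), H2-Ea, a class II histocompatibility chain (-0.976), Rbm47, an RNA-binding protein (-0.976), and Fbln2, a matrix fibulin (-0.974). H2-Ea was 1.35 log2 units higher with BaP and 0.68 higher with DMBA, and Brat1 was 1.38 and 0.90 higher. Dimmer probes of Gabrp, Brat1, Rbm47 and Fbln2 did not show the changes of the probe used, as with Gabrp at 0.01 against -0.83 with BaP. Padi2 had r = 0.888 with Padi1 but an SD of 0.30, under the limit of the ranking, and r was -0.582 for Padi3, -0.793 for Padi4 and -0.786 for Padi6.

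**Figure D4:**
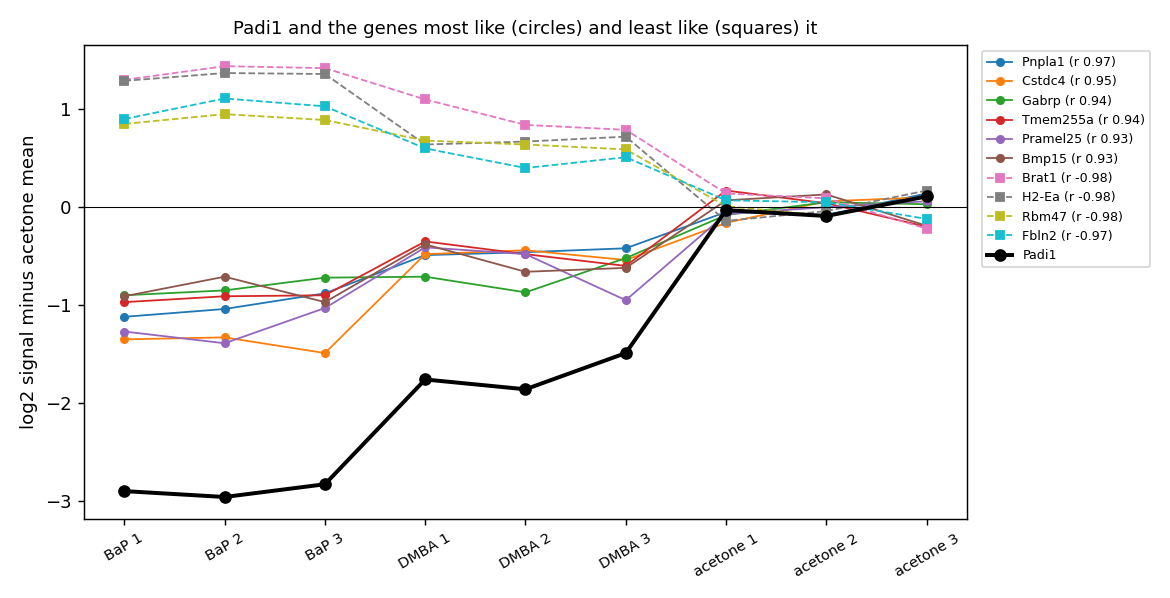
Log2 signal minus the acetone mean on each of the 9 arrays, for Padi1 (black), the 6 genes most like it (circles) and the 4 least like it (squares). Padi1 takes the largest steps, while Pnpla1 and the other circles follow with smaller ones and Brat1 and H2-Ea run the opposite way.

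Genes that act on arginine, or on the proteins Padi1 and its relatives modify, had medians close to that of all genes. Among 26 measured proteins known as citrullination targets, 4 were called higher and 1 lower with BaP, and 0 with DMBA. Over all genes 4.71% were called higher and 5.86% lower with BaP, and 0.716% and 0.324% with DMBA. The median difference was 0.04 with BaP, against -0.00 over all genes. The called ones were Cxcl12, a chemokine (0.72), the keratin Krt10 (0.38), the transglutaminase Tgm1 (0.27) and the chaperone Hspa5 (0.26), all higher, and the basal keratin Krt14, which fell by 0.61 log2 units. With median scaling the split was 0 higher and 6 lower, where 253 and 4877 of all 17889 genes were called, and Krt10 turned to -0.11. Cxcl12 has several further probes. With BaP, 2 well above the median level gave 0.71 and 0.97, and 2 dim ones gave -0.08 and 0.14.

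Of 13 measured genes listed for arginine and guanidino metabolism, 1 was called higher and 2 lower with BaP (median -0.02). The shares over all genes were 4.71% and 5.86%. With DMBA 0 were called higher and 1 lower (median 0.01), against 0.716% and 0.324%. With median scaling 0 were higher and 5 lower with BaP, where 253 and 4877 of all 17889 genes were called. Arg1, which splits arginine to urea and ornithine, fell by 0.82 log2 units with BaP and by 0.56 with DMBA (adjusted p = 8.24e-07 and 0.029), and the DMBA call was also lost with the deposited log2 values. Ddah2, which clears methylated arginine, fell by 0.44 with BaP (adjusted p = 0.0011). Asl, of the urea cycle, was 0.28 higher with BaP and turned to -0.031 with median scaling. Of 9 genes listed with the arginine methyltransferases, Carm1 was called with BaP, where it fell by 0.37 log2 units. Jmjd6, counted among the 9, is not a methyltransferase. With DMBA 0 were called. Median scaling called 6 lower with BaP, beside the same 4877 of all 17889 genes. Another 6 genes were listed with the breakdown of citrullinated protein in cornified layers, among them the lamin Lmnb1. Of the 6, Blmh was called with BaP, where it fell by 0.35 log2 units. With median scaling 3 were called lower, again beside 4877 of all 17889 genes.

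Markers of cells that could carry Padi1, Padi2 or Padi4 also differed with BaP. Of 15 macrophage and leukocyte genes, 10 were called lower and 0 higher with BaP (median -0.47), against 5.86% and 4.71% of all genes. With DMBA 2 were called higher and 0 lower (median 0.12), against 0.716% and 0.324%. With median scaling 13 were lower with BaP, where 4877 of all 17889 genes were. The summed linear level of 6 defining macrophage markers was 720 to 781 with BaP, 1088 to 1133 with DMBA and 918 to 1027 with acetone. Thus the macrophage sum was lower than acetone with BaP and higher with DMBA, whereas Padi1 and Padi2 were lower with both. Its part in their result was not tested.

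Of 25 simple epithelium genes of oviduct and uterus, 10 were called lower and 1 higher with BaP (median -0.15). The shares over all genes were 5.86% and 4.71%. With DMBA 1 was called lower (median -0.00), against 0.324%. Those lower with BaP included Wfdc2 (-2.07), a secreted epithelial protein, and Sprr2f (-1.83), a small proline-rich protein of uterus. Ltf (-4.13), lactoferrin, and Lcn2 (-1.58), an iron carrier, were among them too. With DMBA the differences were -0.15 for Wfdc2, -0.12 for Sprr2f, -0.02 for Ltf and 0.37 for Lcn2, and none passed the test. A dimmer Ltf probe gave -0.24 with BaP (limma adjusted p = 0.0615 over all probes) and 0.05 with DMBA. The summed level of 11 defining epithelial markers was 2643 to 2729 with BaP, 3336 to 4084 with DMBA and 3651 to 3688 with acetone, with Pax8 and Ovgp1 under the median level of all genes. With DMBA this sum overlapped the acetone arrays while Padi1 was lower, and with BaP it was lower as Padi1 was. The part of these cells in the BaP result was not tested.

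Of 21 measured neutrophil and granulocyte genes, 1 was called higher and 3 lower with BaP, against 4.71% and 5.86% of all genes. With DMBA 2 were called higher and 1 lower, against 0.716% and 0.324%. Those lower with BaP were Ltf, Lcn2 and Mmp9, of which the first 2 also stand in the epithelial list. S100a8, a granulocyte calcium binder, rose by 1.10 with DMBA. The defining markers Elane, Mpo, Prtn3, Ctsg, Ngp, S100a9, Mmp8, Cxcr2 and Csf3r were under the median level of all genes, 9 of 12, which is also where Padi4 lay. The summed level of the 12 was 903 to 954 with BaP, 2595 to 2900 with DMBA and 2559 to 2788 with acetone, and with DMBA and acetone Ltf made most of it. Without Ltf, a sum chosen after seeing the data, the other 11 gave 792 to 854 with BaP, 859 to 891 with DMBA and 761 to 785 with acetone. The BaP arrays were not lower than acetone in this sum, but it rests mostly on low signals, with 9 of the 11 genes under the median level. Among the 11, Camp was the gene called higher with BaP (7.23, against 6.75 with acetone). Neutrophil content was not tested.

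A further 20 measured genes were listed with those induced by oestrogen in the uterus and reproductive tract, Padi1 and Padi2 among them. Of the 20, 10 were called lower and 1 higher with BaP and 3 lower with DMBA, which were Padi1, Padi2 and Greb1 (-0.43). Padi1 is in these counts by choice. Over all genes 5.86% were called lower and 4.71% higher with BaP, and 0.324% and 0.716% with DMBA. Without the deiminases, a count added after seeing the data, 8 of 18 were lower and 1 higher with BaP (median -0.14), and 1 was lower and 0 higher with DMBA (median -0.01). Ltf, Sprr2f, Lcn2 and Wfdc2 of the epithelial list are among the 10. Esr1, the oestrogen receptor itself, is also counted among the 10. It was 0.25 log2 units lower with BaP (limma adjusted p = 0.0495, close to the threshold). Of 14 oocyte markers 2 were higher and 4 lower with BaP and 2 lower with DMBA, Bmp15 and Oosp1, and of 10 granulosa markers 1 was higher and 2 lower with BaP and 0 were called with DMBA. Of 10 muscle, glia and lymphoid markers, cells in which Padi2 is known, Des rose by 0.56 (a call lost with median scaling) while Myh11 fell by 0.51 log2 units with BaP, and 0 were called with DMBA.

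**Figure D5:**
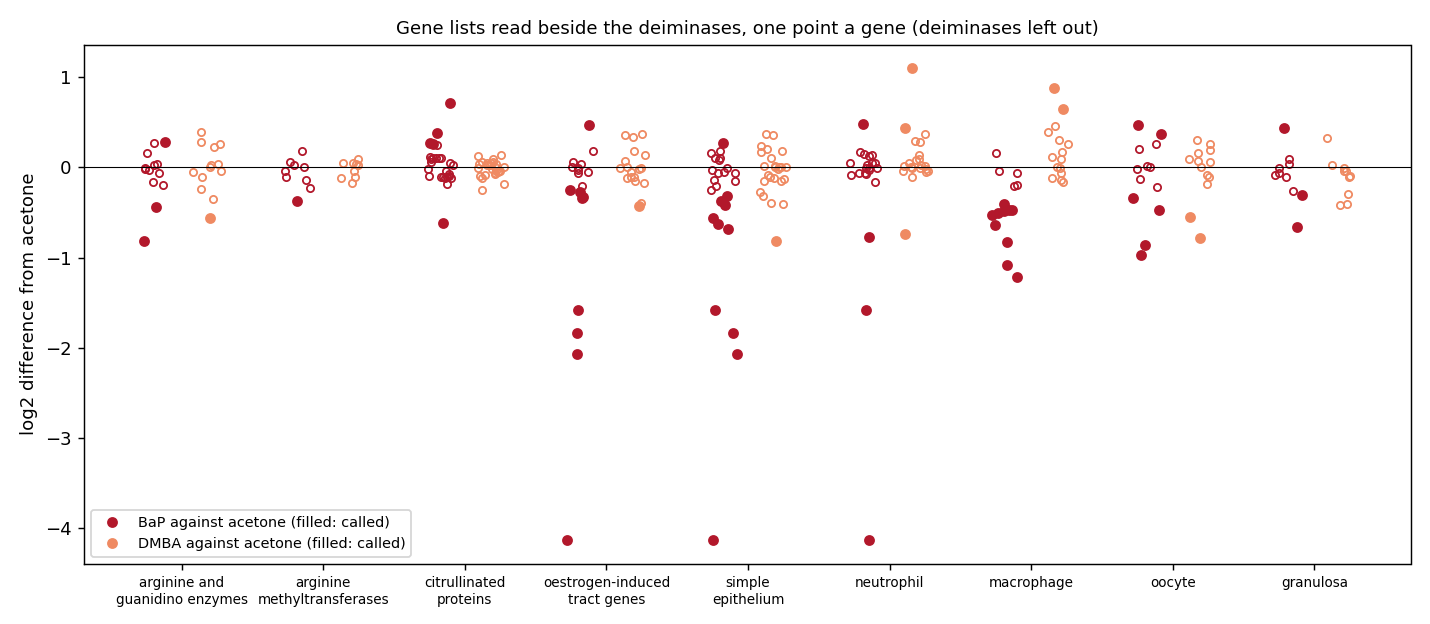
Log2 difference from acetone with BaP and with DMBA for the genes of 9 lists read beside the deiminases, which are left out; filled points passed limma's test. Macrophage and epithelial genes lie mostly below 0 with BaP, with the brighter Ltf probe at -4.13. With DMBA the epithelial genes scatter about 0, while the macrophage genes have a median of 0.12.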

How the data were processed

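The deposited probe intensity table holds non-normalized linear signals of the 9 arrays, per the file headers, and a second deposited table holds normalized log2 values. Per the submitters' processing notes, lumi was among the tools. In the authors' deposited report sheets each probe has a linear ratio, acetone divided by compound, and a raw p-value. These p-values were not used, and the model behind them is not stated in the sources used here. The sheets name genes and the value tables name probes, so each probe was paired with the sheet row whose log2 ratios matched its group means within 0.0001, the next row being 5 or more times as far (25649 of 25697 probes, 48 left out). Names came from RefSeq's GRCm38.p6 table (23692 by accession, 852 by symbol, 434 by synonym, 671 kept).

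Intensities were background-corrected by normexp with an offset of 50, quantile-normalized, log2-transformed and fitted in limma 3.58.1 (R 4.3.3) with lmFit and eBayes, each comparison on its own 6 arrays, with 1 probe a gene, the brightest by mean over the 9 arrays, 17889 genes, and Benjamini-Hochberg adjustment over all of them (threshold 0.05). Further probes were tested in a fit of all probes. The fit was checked on simulated data. Tables, promoter counts and figures were made with Python 3.11.15, pandas 2.3.3, numpy 2.4.6 and matplotlib 3.10.9. Named were all probes of the family, the 6 nearest genes on each side, the 6 genes most and 4 least like Padi1, and up to 4 called members a list. The members and gene lists were chosen with earlier results of these data known. Alternatives were median scaling, the deposited log2 values, no background correction, an offset of 16, a filter at the median level, all probes, all 9 arrays in 1 fit, a replicate block and leaving out each array. The result of 1 list member is not reported here.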

Additional observations from a re-analysis of the deposited data

How the results depend on the processing

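Padi1 kept its direction under every setting run: with BaP against acetone it was -3.06 with median scaling, -2.42 with the deposited log2 values, -2.50 without background correction, -3.59 with an offset of 16, and -2.94 to -2.84 leaving out 1 array. With DMBA against acetone Padi1 was -1.53, -1.55 and -1.91 with the deposited values, no correction and an offset of 16, and -1.80 to -1.62 leaving out 1 array. Between BaP and DMBA Padi1 was -1.68 to -0.89 and called in every setting, with -1.27 to -1.09 leaving out 1 array. These calls are not free of the choice of Padi1 either. Padi2 with DMBA was -0.56 with median scaling, -0.34 with the deposited values and -0.37 without correction, in each case no longer called, and -0.61 to -0.45 leaving out 1 array. Padi4 with BaP became called with median scaling (0.33). The filter at the median level removed Padi2, Padi3 and Padi4, whose signal over background limits what can be seen.

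Counts of called genes were 5130, 689 and 1081 for BaP against acetone with median scaling, an offset of 16 and all 9 arrays in 1 fit, and 1082 to 1787 leaving out 1 array. For DMBA against acetone they were 3 with median scaling (846 at an unadjusted p under 0.05), 98 with the deposited values, 116 without correction, 297 with all 9 arrays, and 22 (without acetone replicate 2) to 820 (without DMBA replicate 3). For BaP against DMBA they were 2072, 145 and 458 with median scaling, the offset and all 9 arrays, and 77 to 774 leaving out 1 array. With median scaling, Padi6 was -0.099 (BaP against acetone), -0.045 (DMBA against acetone) and -0.054 (BaP against DMBA), and Mfap2 was -0.10, Asl -0.031 and Krt10 -0.11 with BaP. Leaving out 1 array moved Ltf with DMBA between -0.083 and 0.047, and above 0 when that array was the first of acetone (0.034) or the second of DMBA (0.047). The causes were not tested.

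The shared replicate numbers did not pair the arrays by the limit set, an r over 0.1 in every pair (r of their deviations -0.145 to 0.0176 for BaP and acetone, 0.0514 to 0.139 for DMBA and acetone, -0.186 to -0.0155 for BaP and DMBA), and 0, 4 and 0 of 6 arrays correlated best with their own number. A replicate block gave 1481, 210 and 136 called genes in these comparisons and left the calls of Padi2 against acetone in place. Padi1 between BaP and DMBA also stayed called, which is not free of the choice of Padi1.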

Other observations

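Among macrophage complement genes, C1qb was 0.88 and C1qc 0.65 log2 units higher with DMBA than with acetone, and the call of C1qb was lost with the deposited log2 values (limma adjusted p = 0.067) and with median scaling (0.103). Mmp9, a secreted gelatinase, took similar steps with both compounds, -0.77 with BaP and -0.74 with DMBA against acetone, and differed by -0.03 between BaP and DMBA (95% interval -0.22 to 0.16).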
